A study of Mus musculus with 4 samples.

Results

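The EphA receptors are a family of receptor tyrosine kinases, and 9 of their genes (Epha1 to Epha8 and Epha10) were followed here. They were taken by symbol, each with the probe set that names that gene alone, and all 9 were measured among 22180 genes in all, with 1 probe set each. Wild-type mouse embryonic stem cells were turned into retinal aggregates in a medium with matrigel, and RNA was put on 4 arrays, 2 from day 4 and 2 from day 7. All samples came from 1 line, made from EB5 (strain 129/Ola). At both days it carried GFP knocked in under the promoter of Rx (Rax), a gene of the eye field, the part of the forebrain plate that becomes the eyes. R-spondin 2 in optic vesicle and neuroretina formation is the subject of the series' title, and the comparison its design gives is day 7 with day 4. Whether replicates came from separate cultures is not in the labels, so the p-values rest on a spread between samples that may be technical.

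Eph receptors bind ephrins, which are held on the surface of neighbouring cells, so signalling takes place where cells touch. EphA receptors mostly bind ephrin-A ligands, which are anchored by a lipid, and EphB receptors mostly bind ephrin-B ligands, which cross the membrane. Contact often ends in repulsion, and the family is known for keeping cell groups apart in the early brain and for the map that axons of the retina form in the midbrain.

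Between day 4 and day 7 the family changed in both directions. Epha3 rose 16.2-fold, Epha5 2.11-fold and Epha4 1.91-fold, while Epha1 was 3.68-fold lower at day 7. The other 5 receptors (Epha2, Epha6, Epha7, Epha8 and Epha10) did not pass the test. Thus 3 of 9 receptors were called higher, where 6.15% of all genes were, and 1 of 9 lower, where 4.33% of all genes were (10.5% in either direction). A gene was called at a limma p under 0.05 after Benjamini-Hochberg adjustment over all 22180 genes. The 2 arrays of day 7 lay outside those of day 4 for 7 of 9 receptors, 4 of them higher and 3 lower, and for 50.8% of all genes (25.6% higher and 25.1% lower). The median difference of the 9 receptors was 0.05 log2, against -0.0036 for all genes, and calls were made in both directions. These values are log2 signals after RMA, on which a difference of 1 is a 2-fold change in normalized signal. The level of a probe set can be compared between arrays but not with that of another gene.

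**Figure D1:**
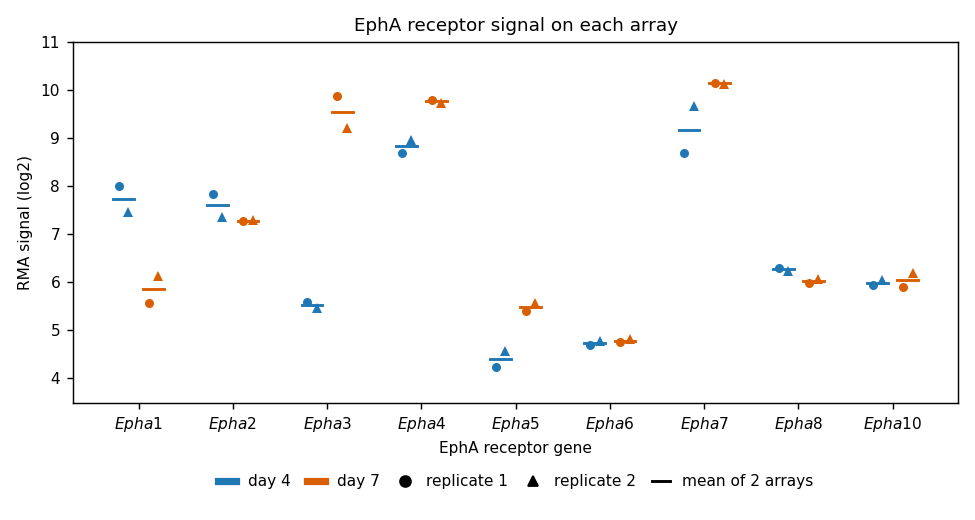
RMA signal (log2, y axis) of the 9 EphA receptor genes (x axis) on each of the 4 arrays, with day 4 in blue, day 7 in orange, circles for replicate 1, triangles for replicate 2 and a bar at the mean of each day. Epha3 stands at 5.58 and 5.47 on the day 4 arrays and at 9.87 and 9.21 on the day 7 arrays, and Epha1 at 8.01 and 7.46 against 5.58 and 6.14; heights of different genes are not comparable.

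The start regions of the 4 receptors that were called are shown because Epha3, Epha4 and Epha5 rose together and Epha1 fell. Each is the RefSeq stretch of 300 bases in assembly GRCm38.p6, from 250 bases before to 50 after the start of the gene, and all 9 receptor genes had such an entry. They are read 5′ to 3′ on the strand of the gene, which is the minus strand for all 4: chr16:63864126-63864425 for Epha3, chr1:77515039-77515338 for Epha4, chr5:84417333-84417632 for Epha5 and chr6:42373219-42373518 for Epha1. Capitals mark matches, on either strand, to the GC box GGGCGG, the CCAAT box CCAAT or the homeodomain core TAATTA.
Epha3: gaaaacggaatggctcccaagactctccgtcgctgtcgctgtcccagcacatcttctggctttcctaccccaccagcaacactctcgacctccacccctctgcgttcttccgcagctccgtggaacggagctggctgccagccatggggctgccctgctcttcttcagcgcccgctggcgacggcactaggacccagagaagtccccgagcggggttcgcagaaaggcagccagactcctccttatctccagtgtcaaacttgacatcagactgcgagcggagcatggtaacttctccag
Epha4: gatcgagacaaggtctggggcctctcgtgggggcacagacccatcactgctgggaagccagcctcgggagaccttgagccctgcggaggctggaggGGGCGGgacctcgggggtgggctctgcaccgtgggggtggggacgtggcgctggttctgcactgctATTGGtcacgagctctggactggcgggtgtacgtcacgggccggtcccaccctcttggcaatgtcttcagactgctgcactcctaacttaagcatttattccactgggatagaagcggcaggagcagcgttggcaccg
Epha5: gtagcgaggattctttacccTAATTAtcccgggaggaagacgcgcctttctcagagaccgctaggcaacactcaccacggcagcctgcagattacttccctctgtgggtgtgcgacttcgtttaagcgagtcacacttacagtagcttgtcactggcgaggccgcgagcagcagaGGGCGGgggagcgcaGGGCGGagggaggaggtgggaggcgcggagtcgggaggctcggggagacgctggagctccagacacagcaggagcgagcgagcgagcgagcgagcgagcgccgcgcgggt
Epha1: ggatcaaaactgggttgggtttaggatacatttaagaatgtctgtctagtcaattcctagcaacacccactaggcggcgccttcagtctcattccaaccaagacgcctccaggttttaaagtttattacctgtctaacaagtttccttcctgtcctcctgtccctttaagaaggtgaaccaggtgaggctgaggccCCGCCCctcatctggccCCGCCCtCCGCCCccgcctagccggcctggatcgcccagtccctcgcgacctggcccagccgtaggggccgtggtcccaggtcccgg
Of 6 motifs searched, the others were the TCF/LEF core CTTTGA, the SOX core ACAAAG (18.7% of all start regions) and the octamer ATGCAAAT (1.74%), with no overlap between matches in these 4 windows. Epha1 held 3 GC boxes, Epha5 held 2 and Epha4 held 1, a motif present in 35.7% of 32851 start regions of this length. The Epha5 window also held 1 TAATTA (5.29% of all start regions) and the Epha4 window 1 CCAAT box (37.4%). Each of the 5 receptors that were not called held GC boxes as well, from 1 for Epha2 to 6 for Epha8. Epha6, Epha7, Epha8 and Epha10 also held CCAAT boxes, so neither of these motifs sets the called receptors apart. The Epha3 window held 0 of the 6 motifs, which says only that these letters are not in this window. The TCF/LEF core, present in 16% of start regions, occurred among the 9 receptors only in that of Epha2, 1 time. CpG pairs numbered 18 for Epha3, 17 for Epha4, 30 for Epha5 and 14 for Epha1, all above the median of 7 over all start regions. The windows of the 5 receptors that were not called held 10 to 56 CpG pairs, so this count does not set the called receptors apart.

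Epha3, a receptor that binds ephrin-A5 strongly, changed most. Its log2 signal was 5.58 and 5.47 at day 4 and 9.87 and 9.21 at day 7. Both day 7 arrays lay far above both day 4 arrays, and replicate 1 was the higher of the day 7 arrays. The mean rose from 5.53 ± 0.08 to 9.54 ± 0.47 (SD, n = 2 per day), a difference of 4.01 log2 (SE 0.225, 95% interval 3.48 to 4.55, adjusted p = 0.000154). Among all 22180 genes this was rank 17 from the largest rise. With each array left out in turn the rise stayed between 12.8-fold and 20.4-fold and was called each time.

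Epha5, which with Epha6 is known for its graded expression across the retina, read 4.24 and 4.58 at day 4 and 5.40 and 5.57 at day 7. The days did not overlap. The mean rose from 4.41 ± 0.24 to 5.48 ± 0.12 (SD, n = 2 per day), a difference of 1.08 log2 (SE 0.169, 95% interval 0.68 to 1.48, adjusted p = 0.00837). Its day 4 mean was below 4.60, the 25th percentile of the mean level over genes, where background left in the signal can make a fold smaller than the true change. Its call needed both day 7 arrays, with an adjusted p of 0.0535 when replicate 1 of that day was left out and 0.0776 when replicate 2 was. Epha6 stood at 4.69 and 4.79 on the day 4 arrays and 4.76 and 4.81 on the day 7 arrays, and the days overlapped. Its difference was 0.05 log2 (95% interval -0.28 to 0.37, adjusted p = 0.908).

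Epha4, which binds ephrins of both classes and guides axons in the forebrain and spinal cord, read 8.70 and 8.96 at day 4 and 9.78 and 9.74 at day 7. The days did not overlap and the day 7 arrays were close to each other. The mean rose from 8.83 ± 0.19 to 9.76 ± 0.03 (SD, n = 2 per day), a difference of 0.93 log2 (SE 0.153, 95% interval 0.57 to 1.29, adjusted p = 0.00996). This call was lost without day 7 replicate 1 (adjusted p = 0.0917) and without day 7 replicate 2 (adjusted p = 0.0742). The difference itself stayed between 0.80 and 1.06 log2 with each array left out.

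Epha7, a receptor of the developing forebrain, read 8.69 and 9.66 at day 4 and 10.15 and 10.13 at day 7. The days did not overlap, but the day 4 arrays lay about as far apart as the days did. The difference was 0.96 log2 (SE 0.292, 95% interval 0.27 to 1.65, adjusted p = 0.0903), close to that of Epha4, with a larger error. It was 1.45 log2 (adjusted p = 0.00184) without day 4 replicate 2 and 0.48 log2 without day 4 replicate 1. It was also called with each array centred on its median (adjusted p = 0.049) and with an intensity trend in the variance prior (adjusted p = 0.0303). The intervals of Epha5, Epha7 and Epha4 overlapped, so the order of these 3 differences is not settled, whereas the interval of Epha3 lay above all 3.

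Epha1, the first Eph receptor to be found and a receptor of epithelia, went the other way. It read 8.01 and 7.46 at day 4 and 5.58 and 6.14 at day 7, and the days did not overlap. The mean fell from 7.74 ± 0.38 to 5.86 ± 0.40 (SD, n = 2 per day), a log2 difference of -1.88 (SE 0.248, 95% interval -2.46 to -1.29, adjusted p = 0.00413). It was rank 105 from the largest fall among all genes. The fall was between 3.03-fold and 4.46-fold with each array left out, and was called each time. In aggregates of mixed cells, fewer cells that hold a transcript and less of it per cell cannot be told apart.

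Epha2, a receptor of epithelia and of the early embryo, did not fall with Epha1 beyond the error. It read 7.83 and 7.36 at day 4 and 7.26 and 7.29 at day 7, with the days apart and a difference of -0.32 log2 (95% interval -0.76 to 0.11, adjusted p = 0.379). Epha8, known from the developing midbrain, read 6.30 and 6.24 at day 4 and 5.98 and 6.08 at day 7. Its days did not overlap either, and its difference was -0.24 log2 (95% interval -0.57 to 0.08, adjusted p = 0.372). Epha10, whose kinase domain is held to be inactive, read 5.94 and 6.04 at day 4 and 5.91 and 6.18 at day 7, with overlapping days and a difference of 0.05 log2 (95% interval -0.32 to 0.42, adjusted p = 0.909). The intervals of Epha2, Epha6, Epha8 and Epha10 all held 0, and each left out a 2-fold change in signal in either direction. Epha6 stood near 4.60, the 25th percentile of the mean level over genes. Background left in a signal that low can make a fold smaller than the true change in transcript.

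**Figure D2:**
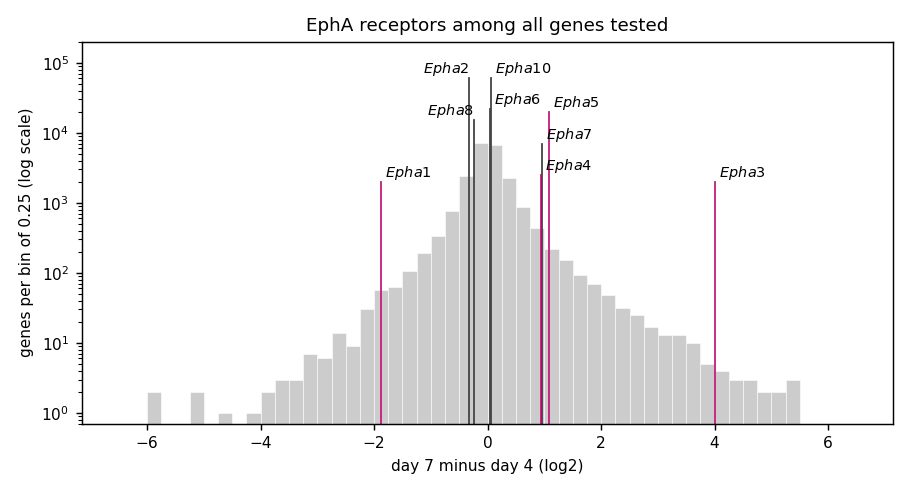
Number of genes (y axis, log scale) by day 7 minus day 4 difference (log2, x axis, bins of 0.25) for all 22180 genes in grey, with a line at the difference of each EphA receptor, pink where it was called and dark grey where it was not. Epha3, at 4.01, lies in the thin right tail, Epha4, Epha7 and Epha5 lie between 0.93 and 1.08, Epha1 lies at -1.88 on the left, and the other 4 lie near 0.

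**Figure D3:**
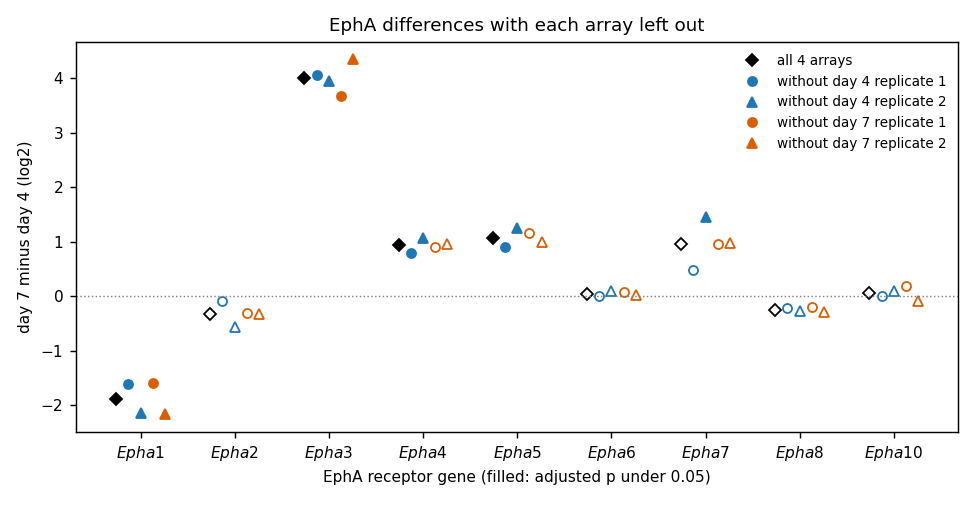
Day 7 minus day 4 difference (log2, y axis) of each EphA receptor (x axis) from all 4 arrays and with each array left out, filled where the adjusted p was under 0.05. Epha3 and Epha1 are filled in every fit shown, Epha4 and Epha5 are open in both fits that leave out a day 7 array, and Epha7 moves from 0.48 to 1.45 with the day 4 array left out.

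Closeness on a chromosome can be set beside these values. Epha6 and Epha3 lie on chromosome 16 with 4 protein-coding genes between them, and only Epha3 was called. Epha7, Epha10, Epha8 and Epha2 all lie on chromosome 4, but far from each other. There, 697 protein-coding genes lie between Epha7 and Epha10 and 65 between Epha8 and Epha2. Of these 4, limma called 0, where 10.5% of all genes were called (the unadjusted p of Epha7 was 0.0129). Epha1 lies on chromosome 6, 18 protein-coding genes from the EphB receptor gene Ephb6. The order of genes was taken from RefSeq for GRCm38.p6.

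Among the ligands, the ephrin-B genes rose as a whole and the ephrin-A genes in part. For ephrin-B ligands 3 of 3 were called higher, and for ephrin-A ligands 2 of 5 higher and 0 lower, beside 6.15% higher and 4.33% lower over all genes. Their median differences were 1.89 and 0.30 log2, against -0.0036 for all genes. Efnb1, an X-linked gene whose product crosses the membrane and can signal backwards, read 6.97 and 7.15 at day 4 and 10.47 and 10.16 at day 7. It rose 9.52-fold (log2 difference 3.25, 95% interval 2.86 to 3.64, adjusted p = 0.00012). Efnb3 rose 3.71-fold (adjusted p = 0.000442) and Efnb2 1.80-fold (adjusted p = 0.0118). Efnb2 had an adjusted p of 0.0841 with day 7 replicate 1 left out and 0.103 with replicate 2 left out. Some ephrins of this class, not necessarily all 3, are ligands of Epha4 beside ephrin-A.

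Of the ephrin-A ligands, Efna2 and Efna5 are known with EphA receptors from the map of retinal axons. Efna2 read 8.58 and 8.70 at day 4 and 10.03 and 9.63 at day 7, and rose 2.28-fold (log2 difference 1.19, 95% interval 0.78 to 1.61, adjusted p = 0.00652). Efna5 read 8.49 and 8.88 at day 4 and 9.66 and 9.90 at day 7, and rose 2.13-fold (log2 difference 1.09, 95% interval 0.66 to 1.53, adjusted p = 0.0107). Neither gene's days overlapped. The call of Efna2 was lost without day 7 replicate 1 (adjusted p = 0.0576), and that of Efna5 without day 7 replicate 1 (adjusted p = 0.0526) or 2 (adjusted p = 0.0924). Efna1, Efna3 and Efna4, which lie side by side on chromosome 3, were not called, with differences of -0.09, -0.07 and 0.30 log2.

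Of the EphB receptors, 0 of 4 measured were called with limma, and Ephb2 was not analysed here. Before adjustment the limma p was 0.0327 for Ephb1 and 0.0257 for Ephb6, and the share of all genes at such values was not counted. The largest difference was that of Ephb1, at 7.20 and 7.84 on the day 4 arrays and 6.90 and 6.97 on the day 7 arrays (log2 difference -0.58, adjusted p = 0.166). Without day 4 replicate 1 its adjusted p was 0.0186. The median of the 4 was -0.01 log2. At the receptor level, calls were made for EphA genes and for 0 of 4 EphB genes, where 10.5% of all genes were called in either direction. A count of 0 of 4 is near that share. The difference between the families was not tested.

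**Figure D4:**
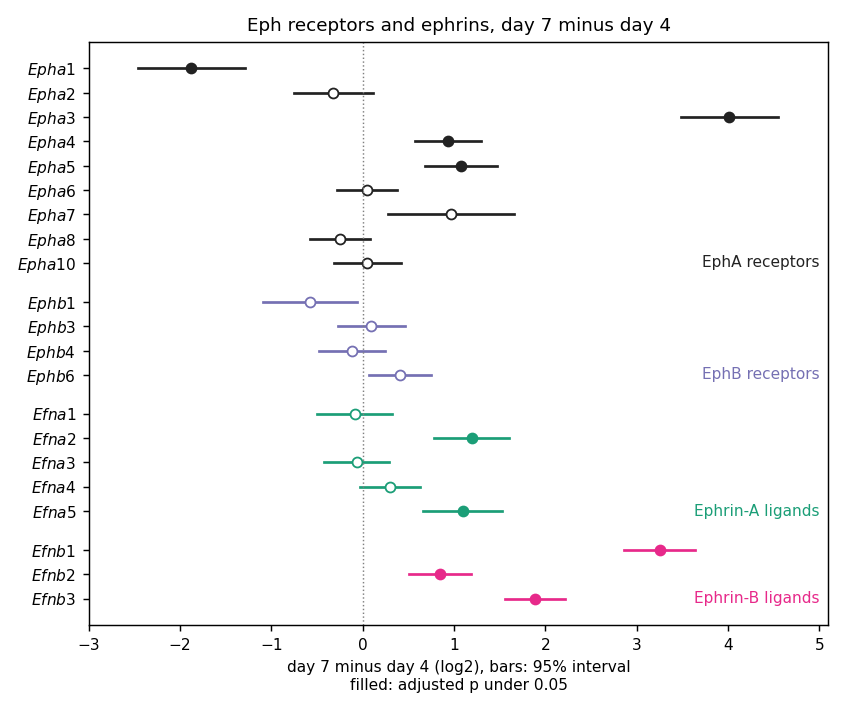
Day 7 minus day 4 difference (log2, x axis) with its 95% interval for the EphA receptors, EphB receptors, ephrin-A ligands and ephrin-B ligands (y axis), with filled points where the adjusted p was under 0.05. Epha3 and Efnb1 stand furthest to the right, at 4.01 and 3.25, and Epha1 is the filled point left of 0, at -1.88.

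Inside the cell, EphA receptors act through exchange factors and GTPase-activating proteins for small GTPases, Src-family kinases and adaptors, and ephrin-A can be cut from its cell by a protease. Of 27 such genes measured, 4 rose, 2 fell and 21 were not called, with a median difference of 0.13 log2. Over all genes 6.15% were called higher and 4.33% lower, and the 2 of 27 lower are near that share. The 4 higher became 2 without day 4 replicate 1, day 4 replicate 2 or day 7 replicate 2 and 1 without day 7 replicate 1. Adam10, the metalloprotease known to cut ephrin-A bound to an EphA receptor, rose 2.56-fold (8.63 and 8.48 at day 4, 9.87 and 9.95 at day 7, adjusted p = 0.00165). Chn2, a GTPase-activating protein for Rac, rose 2.48-fold (adjusted p = 0.0203, and 0.134 without day 7 replicate 1). The adaptor gene Nck2 rose 1.57-fold (adjusted p = 0.0385, called in 7 of 12 alternatives). The fourth was Tiam1, an exchange factor for Rac, with a difference of 0.59 log2 (adjusted p = 0.039, called in 7 of 12 alternatives and up to 0.239 with an array left out), which is named here to complete the count. The genes that fell were both exchange factors. Arhgef15, known as a partner of EphB2, differed by -0.76 log2 (adjusted p = 0.0182) and Arhgef16 by -0.65 log2 (adjusted p = 0.0311). Without day 7 replicate 1 or 2 these became 0.126 or 0.13 for Arhgef15 and 0.228 or 0.131 for Arhgef16. The small GTPase gene Rhoa was at 12.15 and 12.12 at day 4 and 12.22 and 12.14 at day 7, with overlapping days.

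The genes whose values over the 4 arrays were most like those of each called receptor were found by the root mean square distance of log2 values centred per gene. With 4 arrays such likeness is a description only. Epha3 was nearest to Dmrt3, a transcription factor gene of the dorsal forebrain, at a distance of 0.168 log2, then to Lix1 (0.283) and to the sphingosine-1-phosphate receptor gene S1pr3 (0.326). Dmrt3 rose 13.4-fold, and at day 7 its replicate 1 was the higher, at 9.54, as for Epha3. That order follows in part from choosing genes by these same values. Lix1 had it too, and S1pr3 had the opposite order (10.27 and 10.35 at day 7). Only 1 gene lay within 0.2 log2 of Epha3, against 31 for Epha1, 398 for Epha5 and 721 for Epha4. MicroRNAs, small nucleolar RNAs and genes with a Gm number or a Rik name were left out of these counts. These counts depend on how many genes had a difference of that size, and the rise of Epha3 was rank 17 among all genes. Epha1 was nearest to Spry4, an inhibitor of receptor tyrosine kinase signalling (0.0841), the spectrin gene Sptb (0.0849) and Met, the receptor of hepatocyte growth factor (0.0941). Met read 8.06 and 7.59 at day 4 and 5.87 and 6.22 at day 7. Epha4 was nearest to D2Bwg1423e (0.0186), the tropomyosin gene Tpm1 (0.0194) and the receptor phosphatase gene Ptprs (0.02). Epha5 was nearest to the dynamin gene Dnm1 (0.0231), to the ligand gene Efna5 (0.0348) and to Usp11 (0.0375).

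**Figure D5:**
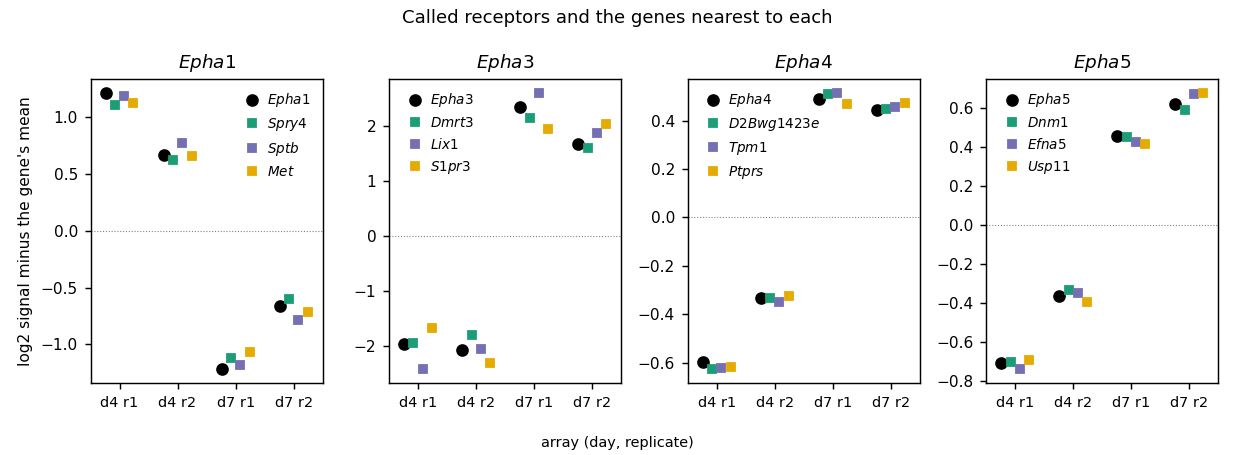
Log2 signal minus the gene's own mean (y axis) on the 4 arrays (x axis, d for day and r for replicate) for Epha1, Epha3, Epha4 and Epha5 (black circles) and the 3 genes nearest to each (coloured squares). The squares follow the circles most loosely for Epha3, whose nearest genes stood 0.168 to 0.326 log2 away, and most closely for Epha4 (0.0186 to 0.02).

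Other cell states moved between the days as well. The arrays had medians of 5.68 to 5.77 log2 over all probe sets. Across probe sets (no independent replicates) the correlation between replicates was 0.986 at day 4 and 0.991 at day 7. Between arrays of different days it was 0.972 to 0.978, so high values were not particular to replicates. Of the markers of the labelled tissue, 4 of 8 eye field genes rose, Nr2e1 and Pax6 most, with Rax at 6.14 and 6.82 on the day 4 arrays and 7.62 and 8.37 on the day 7 arrays. Otx2 of the same list was lower on both day 7 arrays, by -0.54 log2, and was not called with limma (adjusted p = 0.0898). No other measured eye field marker had a negative difference. Otx2 was called lower with the replicate number as a block, median centring, a filter at the median level, or an intensity trend. Neural progenitor markers rose in 7 of 8 cases (4 without day 7 replicate 1), led by Zic1, and cortex and hem markers in 6 of 7, led by Wnt8b and Emx2. Early neuron markers rose in 3 of 8 cases (Nhlh1 and Dcx most) and fell in 1 (Stmn2, lost without day 7 replicate 1). Their summed signal was 10.93 to 11.03 log2 at day 4 and slightly lower, 10.88 to 10.90, at day 7. A summed signal is the log2 of a list's unlogged signals added on each array, so the brightest probe sets weigh most in it. Pluripotency and epiblast markers fell in 7 of 8 cases, Fgf5 and Dnmt3b most, with a summed signal of 13.77 to 13.97 log2 at day 4 and 11.58 to 11.71 at day 7. Mesenchyme markers rose in 5 of 8 cases (8 without day 4 replicate 2), Acta2 and Prrx1 most, with a summed signal of 9.62 to 9.88 log2 at day 4 and 11.55 to 11.66 at day 7. Of 6 neural crest markers 3 rose (Sox9 and Sox10 most) and 1 fell (Foxd3, a call lost without day 4 replicate 1 or either day 7 array), with a summed signal of 9.23 to 9.51 and 10.55 to 10.57 log2. Endoderm markers had 1 rise (Sox17) and 1 fall (Cer1) among 8, and endothelial markers 1 rise (Kdr) among 8, counts that lie near the shares of all genes called (6.15% higher and 4.33% lower). Both rises depended on single arrays. The endoderm rise was lost without day 4 replicate 1 or either day 7 array and with quantile normalization, and the endothelial rise without day 4 replicate 1 or day 7 replicate 2. Their summed signals were 11.08 to 11.10 log2 at day 4 and 10.56 to 11.09 at day 7 for endoderm, and 9.05 to 9.10 and 8.99 to 9.51 for endothelium. The part of these shifts in the changes of Epha3, Epha4, Epha5 and Epha1 was not tested.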

How the data were processed

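The table deposited by the authors holds log2 signals from RMA, for which the submitters' processing notes name Partek 6.5. Its settings and the genome build are not given in the sources used here. RMA evens out the distributions of the arrays, so a shift of nearly all genes is invisible, and background it leaves makes folds of dim genes smaller. The platform annotation gave 1 gene for 23521 of 41345 probe sets, several for 1814 and none here for 16010, and the last 2 kinds were left out. The probe set with the highest mean was kept for each of 22180 genes, of which 21994 matched the RefSeq gene table by identifier. Day 7 minus day 4 was fitted with limma 3.58.1 in R 4.3.3 (lmFit and eBayes, no trend, day as the only term, 2 residual degrees of freedom, two-sided). The prior on the variance had an SD of 0.16 and 5.07 degrees of freedom. On simulated arrays (20 sets of 22180 genes, 200 of them changed) it recovered 37.9% of changes of 1 log2 and 97.8% of changes of 2. In the data 2324 genes were called, and the adjustment depends on that share, so these percentages need not hold for the data. Precision is limited by the number of arrays.

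The receptors, the 4 lists of related genes, the 9 marker lists and the tests were chosen with earlier results of these data known. Named genes were all 9 receptors and up to 3 called members each way of a related list (or the largest difference). Added to these were up to 2 each way of a marker list and the 3 genes nearest to each called receptor. The nearest genes were sought without microRNAs, small nucleolar RNAs and genes with a Gm number or a Rik name. Rax, Otx2, Rhoa, Tiam1, Ephb6, Efna1, Efna3 and Efna4 lay outside this rule and were chosen with their values known. Alternatives were the replicate block, leaving out each array (the lone array of its day is then taken to vary like the other day), quantile normalization, centring on the array median, filters at the 25th percentile and median of level, an intensity trend with and without robust estimation, no variance prior, averaging the probe sets of a gene, and adjusted p limits of 0.01 and 0.1. Counts over a gene's alternatives omit both p limits and the fit that has no prior.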

Additional observations from a re-analysis of the deposited data

How the results depend on the processing

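Epha3 and Epha1 were called in all 12 alternatives counted, and Epha4 in 10 of 12. Epha5 was called in 9 of 11, since it is not tested above the median level, and Epha7 in 3 of 12. Leaving out each array in turn gave 1 to 4 receptors called higher and 1 to 1 lower. Among related genes it gave 3 to 7 called higher and 0 to 2 lower, and among all genes 573 to 1378 higher and 314 to 1122 lower, in place of 1364 and 960. Without a variance prior, which leaves 2 residual degrees of freedom, 0 receptors were called higher and 0 lower. For related genes the counts were 0 and 0, and for all genes 2 and 1. At an unadjusted p under 0.05 this fit held 4 of 9 receptors and 3557 of all 22180 genes. At an adjusted p limit of 0.01, 4 related genes were called higher and 0 lower, and 675 and 403 of all genes. On genes above the median level 1 related gene was called lower in place of 2, with fewer genes tested. Differences near 0 changed sign when an array was left out, with Epha6 between -0.00166 and 0.0948 log2, Epha10 between -0.0857 and 0.189, Efna1 between -0.29 and 0.113 and Efna3 between -0.17 and 0.0383. A replicate block gave 3 receptors called higher and 1 lower, as without it. Over all genes it gave 1606 higher and 1164 lower, more than the 1364 and 960 without it. Same-numbered arrays deviated together only weakly (r = 0.186 across genes, 2 numbers), and the labels give no shared origin. The cause of the other changes was not tested.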
